A study of Mus musculus with 6 samples.

Results

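The insulin genes Ins1 and Ins2 and 3 factors of the pancreatic beta cell, Mafa, Nkx6-1 and Ucn3, were followed in RNA from mouse hypothalamus. The 5 genes were chosen by name, for their bearing on the Cre drivers of the study. Each had 1 probe, matched through its transcript accession, so the set holds 5 of 39429 probes and 5 of 22863 tested genes, and each passed the background filter on all 6 arrays. All mice were male, on the C57BL/6J background and aged 16 weeks. TrspFF mice carry floxed alleles of Trsp (TrspFlox/Flox) and are the controls. Trsp-RIPKO mice carry the same floxed alleles with RIP-Cre, and Trsp-Ins1KO mice carry them with Ins1-Cre, so all 3 groups share the floxed Trsp alleles. There were 2 arrays per group. The labels do not say whether each array came from a separate animal, which line of RIP-Cre or Ins1-Cre was used, or whether Ins1-Cre is a transgene or an insertion into the Ins1 gene. What the p-values weigh is therefore array-to-array spread, and this could be technical alone.

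Mice have a pair of insulin genes. Ins2 corresponds to the single insulin gene of most other mammals, and Ins1 arose as a retroposed copy of it. Both are transcribed mainly in pancreatic beta cells. MafA and Nkx6-1 are transcription factors that act in mature beta cells, MafA by binding the insulin promoter, and urocortin 3 is a peptide of the corticotropin-releasing factor family made both by mature beta cells and by groups of hypothalamic neurons. RIP-Cre places Cre under the rat insulin promoter, which is known to be active in part of the hypothalamus as well as in beta cells, whereas Ins1-Cre uses the control regions of the mouse Ins1 gene. Trsp encodes the transfer RNA that inserts selenocysteine into selenoproteins.

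The promoter of Ins1 is shown because one of the drivers is named for it. RefSeq (build GRCm38.p6) gives the 250 bases before the start of the gene at chr19:52264047-52264296, plus strand, printed 5′ to 3′ with matches to 4 motifs in capitals.

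Ins1 promoter: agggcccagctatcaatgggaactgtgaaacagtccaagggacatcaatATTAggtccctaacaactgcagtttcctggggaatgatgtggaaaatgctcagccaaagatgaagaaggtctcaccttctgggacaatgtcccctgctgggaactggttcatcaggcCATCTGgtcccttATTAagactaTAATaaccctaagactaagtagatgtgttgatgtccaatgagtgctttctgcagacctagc

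The motifs, each looked for on both strands, were TAAT (the core bound by homeodomain proteins, a class that holds Nkx6-1 and Pdx1), CATCTG (the core of the insulin E box), TGCAGC (the core of the element that MafA binds) and TGACG (the core of the cyclic AMP response element). TAAT matched 3 times in the Ins1 promoter, beginning 201, 71 and 61 bases before the start, and CATCTG matched once, beginning 84 bases before it. TGCAGC and TGACG had 0 matches in this window. Only exact matches were counted, so a variant form of either element would be missed. Of 32851 promoters of the same length, 54.9% held TAAT, 14.4% CATCTG, 16.5% TGCAGC and 17.8% TGACG, so TAAT alone is common. In the Ucn3 promoter TAAT matched 2 times and CATCTG once, and in the Nkx6-1 promoter only TGACG matched, once. Promoter entries were matched for 3 of the 5 genes.

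Throughout, a level is the log2 of the background-subtracted signal of a probe minus the 75th percentile of its array, so that 0 equals that percentile. That percentile lay between a signal of 1391 and 2137, the share of probes well above background was 68.9% to 72.0%, and no spot reached saturation. Differences are taken between arrays for the same probe, since the brightness of different probes does not rank their transcripts. Fewer cells of a type and less RNA per cell cannot be told apart in RNA from whole tissue. The pair of TrspFF arrays was on 1 slide and the 4 knockout arrays on a second, each scanned separately, so slide and genotype cannot be told apart in the comparisons with TrspFF. Only the knockouts can be compared within 1 slide. The value table gives the name of each knockout to the arrays that the scanner files give to the other. Groups are given here by the labels of the scanner files. One of the arrays labelled Trsp-Ins1KO, replicate 2, stands apart by its low choroid plexus markers.

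Of the 5 genes, Ins1 and Ins2 were lower on both arrays labelled Trsp-Ins1KO than on the other 4 arrays, Ucn3 was higher there, and none of these differences passed the test. The test was limma over all 22863 genes with Benjamini-Hochberg adjustment at 0.05. Against TrspFF, 0 of the 5 genes passed in the arrays labelled Trsp-RIPKO, where 1.66% of all tested genes did. In the arrays labelled Trsp-Ins1KO 0 of 5 passed against a background of 1.82%, and between the knockouts 0 of 5 against 0.0175%. At an unadjusted p under 0.05 the counts were 0 of 5 (all genes 23.9%), 1 of 5 (26.0%) and 0 of 5 (18.4%), the single gene being Ins2. The median difference of the 5 genes was -0.19, -0.26 and 0.067 in the 3 comparisons, beside -0.014, 0.024 and -0.048 over all tested genes.

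**Figure D1:**
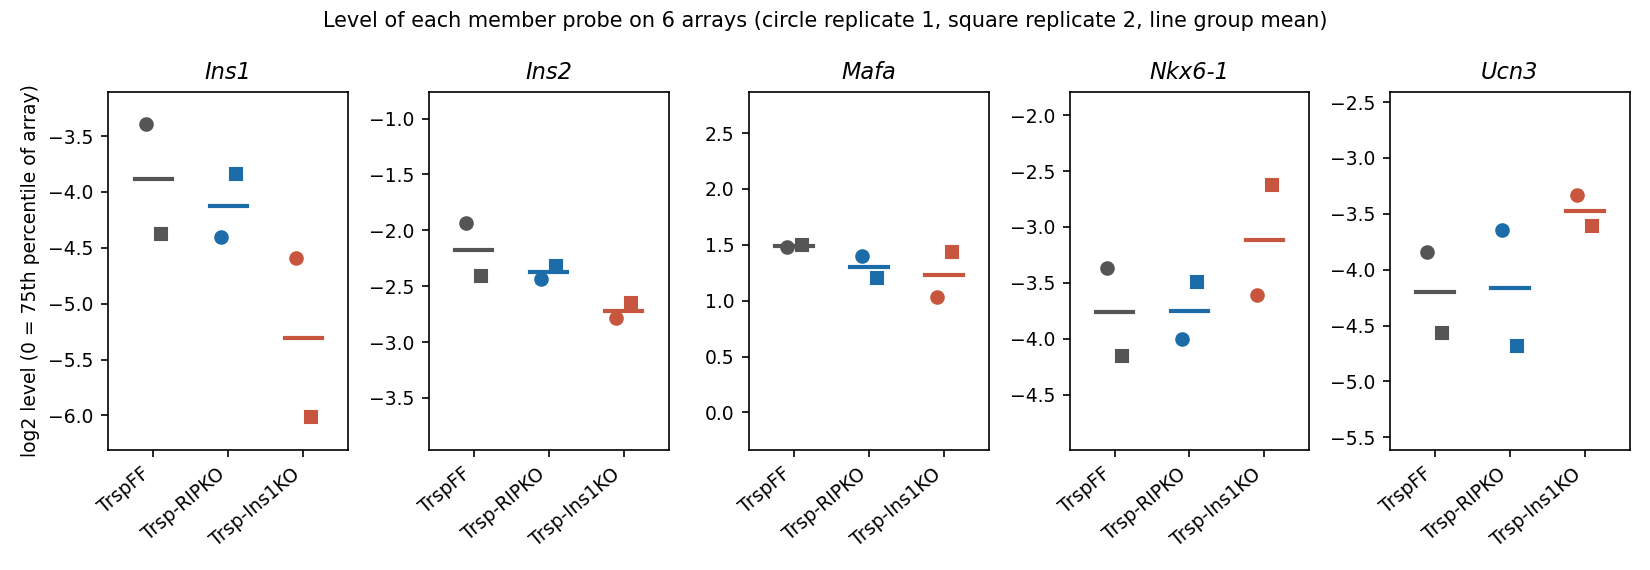
Log2 level of each of the 5 probes (0 is the 75th percentile of the array) on the 6 arrays, by the genotype on the scanner file; circles are replicate 1, squares replicate 2 and lines group means. Every panel spans 3.2 log2 units, so that the gap of 1.43 between the Ins1 levels of the arrays labelled Trsp-Ins1KO can be set beside the gap of 0.018 between the Mafa levels of TrspFF.

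Ins1 had a level of -3.40 and -4.37 in TrspFF, -4.41 and -3.84 in the arrays labelled Trsp-RIPKO, and -4.59 and -6.02 in those labelled Trsp-Ins1KO. The TrspFF and Trsp-RIPKO arrays overlap, and both Trsp-Ins1KO arrays lie below them, the nearer by 0.18. Of all tested genes, 9.57% were likewise lowest on both of these arrays. Ins1 in the arrays labelled Trsp-Ins1KO differed from TrspFF by -1.42 (SE 0.59, 95% interval -2.94 to 0.11, n = 2 per group, limma adjusted p = 0.212). The difference was -0.71 without Trsp-Ins1KO replicate 2 and -0.73 with normexp background correction, and it was -0.93 without TrspFF replicate 1. Over the alternatives the adjusted p ranged from 0.180 to 0.823, the highest being that with the knockout names of the value table.

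The Ins1 probe was faint. On Trsp-Ins1KO replicate 2 its signal was 29.8, and its level there was 0.52 above the faintest level called well above background on that array; on the other 5 arrays the signal was 72.1 to 149 and the margin 1.46 to 2.83. The error that the scanner software assigns to the spot was 17.1% of the signal on that array and 10.4% to 12.4% on the others. The gap between the Ins1 levels of the 2 Trsp-Ins1KO arrays, 1.43, was equalled or exceeded by 2.00% of tested genes. Between the knockouts, the Trsp-RIPKO arrays were 1.18 higher than the Trsp-Ins1KO arrays (SE 0.59, 95% interval -0.35 to 2.70, limma adjusted p = 0.324, and 0.295 with these groups alone, which is within 1 slide). Without Trsp-Ins1KO replicate 2 that difference was 0.47. For Trsp-RIPKO against TrspFF the Ins1 difference was -0.24 (95% interval -1.76 to 1.28, limma adjusted p = 0.823), an interval that reaches past a 2-fold change either way.

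The Ins2 probe had signals of 251 to 429. Its levels were -1.94 and -2.41 in TrspFF, -2.44 and -2.32 in the arrays labelled Trsp-RIPKO, and -2.79 and -2.65 in those labelled Trsp-Ins1KO. The Trsp-Ins1KO arrays are again the lowest and differ from each other by 0.14, while TrspFF and Trsp-RIPKO overlap. Ins2 in the arrays labelled Trsp-Ins1KO was 0.55 lower than in TrspFF, at means of -2.72 and -2.17 (difference -0.55, SE 0.18, 95% interval -1.01 to -0.083, limma adjusted p = 0.152). With 1 array left out it was -0.78 to -0.31, the smallest being that without TrspFF replicate 1. Against the arrays labelled Trsp-RIPKO the Trsp-Ins1KO arrays were lower as well, with a difference of Trsp-RIPKO minus Trsp-Ins1KO of 0.34 (SE 0.18, 95% interval -0.12 to 0.80, limma adjusted p = 0.337). For Trsp-RIPKO against TrspFF it was -0.20 (95% interval -0.66 to 0.26, limma adjusted p = 0.515).

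Ins1 and Ins2 are close copies, and the sequences of their probes were not used here, so how far each probe also reads the other transcript was not tested. Over the 6 arrays their levels had a Pearson r of 0.75, as a description of arrays that share slides. Trsp-Ins1KO replicate 2 is where they part, since Ins1 is there the lowest by 1.43 and Ins2 is not the lowest of its arrays.

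Mafa, the activator of the insulin promoter, had the least spread of the 5. Its levels were 1.48 and 1.50 in TrspFF, 1.40 and 1.20 in the arrays labelled Trsp-RIPKO, and 1.03 and 1.43 in those labelled Trsp-Ins1KO. Both TrspFF arrays lie above all 4 knockout arrays, as they did for 17.5% of all tested genes. The differences were small: -0.19 for Trsp-RIPKO against TrspFF (SE 0.16, 95% interval -0.61 to 0.23, limma adjusted p = 0.496) and -0.26 for Trsp-Ins1KO against TrspFF (95% interval -0.68 to 0.16, adjusted p = 0.358). With normexp background correction they were 0.081 and -0.016, so the direction in the arrays labelled Trsp-RIPKO turns with the background method. The Trsp-Ins1KO difference was -0.46 without Trsp-Ins1KO replicate 2 and -0.059 without Trsp-Ins1KO replicate 1. Between the knockouts the Mafa difference was 0.067 (95% interval -0.35 to 0.49, limma adjusted p = 0.828), and 0.27 without Trsp-Ins1KO replicate 2. A probe signal of 3552 to 5215 was measured for Mafa across the 6 arrays, well clear of background on each.

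Nkx6-1, the homeodomain factor, had levels of -3.37 and -4.16 in TrspFF, -4.00 and -3.50 in the arrays labelled Trsp-RIPKO, and -3.61 and -2.63 in those labelled Trsp-Ins1KO. Every pair of groups overlaps, and only Trsp-Ins1KO replicate 2 lies above all other arrays. Its difference from TrspFF was 0.64 in the arrays labelled Trsp-Ins1KO (SE 0.44, 95% interval -0.51 to 1.79, limma adjusted p = 0.399) and 0.15 without that array. For Trsp-RIPKO against TrspFF it was 0.011 (95% interval -1.14 to 1.16, limma adjusted p = 0.990), and for Trsp-RIPKO against Trsp-Ins1KO -0.63 (adjusted p = 0.443). The latter was -0.14 without Trsp-Ins1KO replicate 2 and -1.12 without Trsp-Ins1KO replicate 1.

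Ucn3, the neuropeptide, had levels of -3.84 and -4.56 in TrspFF, -3.64 and -4.68 in the arrays labelled Trsp-RIPKO, and -3.34 and -3.61 in those labelled Trsp-Ins1KO. Both Trsp-Ins1KO arrays lie above the other 4, the nearer by 0.036, as they did for 18.3% of all tested genes. Ucn3 was 0.73 higher in the arrays labelled Trsp-Ins1KO than in TrspFF (SE 0.42, 95% interval -0.36 to 1.82, limma adjusted p = 0.328). The difference was 0.40 with normexp and was 0.37 without TrspFF replicate 2. Against the Trsp-RIPKO arrays, whose own levels differ by 1.04, the difference of Trsp-RIPKO minus Trsp-Ins1KO was -0.69 (95% interval -1.78 to 0.40, limma adjusted p = 0.391). It was -0.17 without Trsp-RIPKO replicate 2, -1.21 without Trsp-RIPKO replicate 1 and -0.36 with normexp. For Trsp-RIPKO against TrspFF it was 0.038 (95% interval -1.05 to 1.13, limma adjusted p = 0.963).

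**Figure D2:**
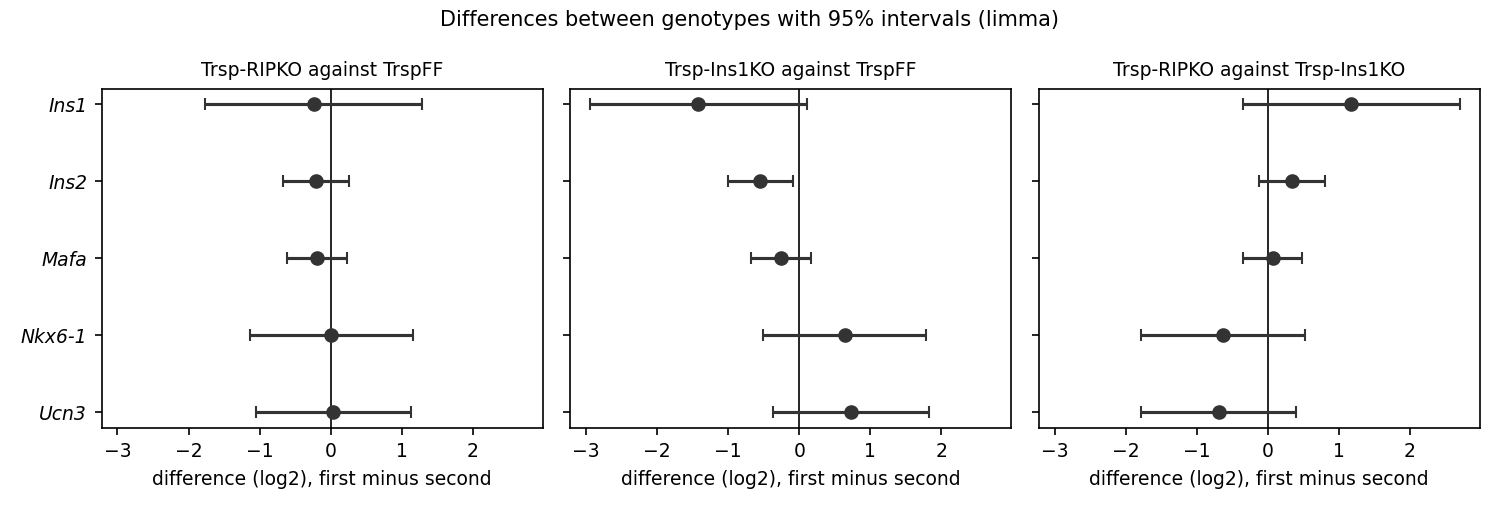
Difference in log2 level between genotypes for the 5 genes, first group minus second, with 95% intervals from limma (n = 2 arrays per group). All intervals reach 0 except that of Ins2 for Trsp-Ins1KO against TrspFF, which runs from -1.01 to -0.083, and no gene passed after adjustment.

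Counted without a test, the arrays of the groups did not overlap for 1 of the 5 genes (Mafa) in Trsp-RIPKO against TrspFF, where 58.3% of all tested genes did not. The count was 4 of 5 (all but Nkx6-1) in Trsp-Ins1KO against TrspFF, beside 58.2%, and 3 of 5 (Ins1, Ins2 and Ucn3) between the knockouts, beside 58.6%. With 2 arrays per group such a gap is common, and 5 genes are too few to set these counts apart from the background. The TrspFF arrays serve as control in both comparisons, which are therefore not independent.

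The exchanged names bear directly on Ins1 and Ins2, because one of the knockouts is named for the Ins1 driver. Each of the 6 columns of the value table, which holds log2 values centred on the median of each probe, matched 1 scanner file across 39311 probes at r of 0.99997 or above, and for the 4 knockout columns that file bore the name of the other knockout. In that table the Ins1 values were 1.00 and 0.016 for TrspFF, -0.20 and -1.62 under the name Trsp-RIPKO, and -0.016 and 0.54 under the name Trsp-Ins1KO. For Ins2 they were 0.48 and 0.014, then -0.37 and -0.23, then -0.014 and 0.10, in the same order. Under the names of the value table the lower Ins1 and Ins2 levels therefore belong to Trsp-RIPKO, the mice with the rat insulin promoter, and Ins1 in the mice named for the Ins1 driver differs from TrspFF by -0.24. Ucn3 and Nkx6-1, which were 0.73 and 0.64 higher than TrspFF in the arrays labelled Trsp-Ins1KO, likewise move to Trsp-RIPKO. The files do not say which naming is right. A probe for Cre or for Trsp was not analysed here, and both knockouts carry a Cre driver and the same floxed alleles.

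**Figure D3:**
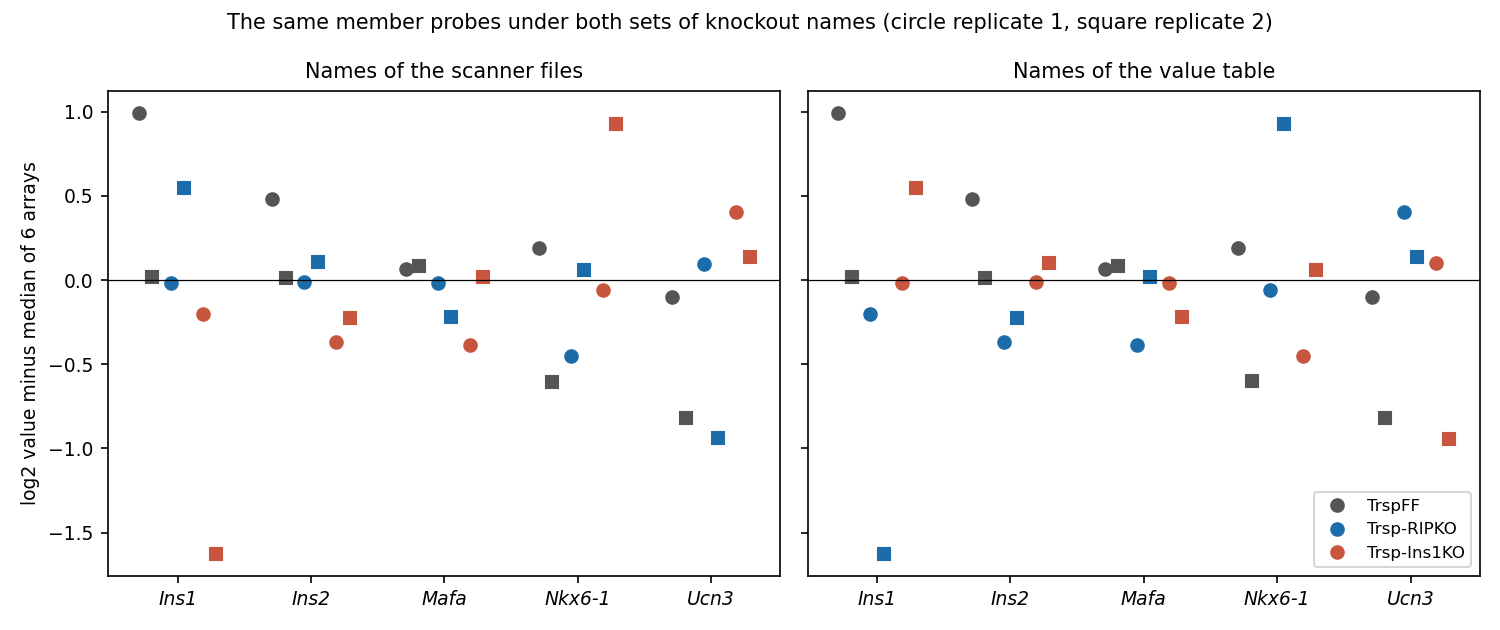
Log2 value minus the median of the 6 arrays for each gene, by genotype: on the left with the names of the scanner files, on the right the value table with its own column names; circles are replicate 1 and squares replicate 2. The TrspFF points stay where they are and the knockouts trade places, so the Ins1 value of -1.62 is under Trsp-Ins1KO on the left and under Trsp-RIPKO on the right.

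The choroid plexus is the secretory epithelium of the ventricles. The mean level of 16 of 16 tested choroid plexus markers was 0.28 and -0.39 in TrspFF, -0.44 and -0.25 in the arrays labelled Trsp-RIPKO, and -0.75 and -3.10 in those labelled Trsp-Ins1KO. Ranked by this mean the 6 arrays stand in the same order as by Ins1, with TrspFF replicate 1 highest and Trsp-Ins1KO replicate 2 lowest. Most single markers did not keep that order, and of the 16 only Kl, Kcnj13 and Kcne2 did. Otx2 was at 1.14 on Trsp-Ins1KO replicate 1, its second highest level, and Sostdc1 was highest on TrspFF replicate 2, at 0.52. Both examples were chosen after their values were seen. By limma 0 of 16 passed the test in each comparison, and the median difference of the list was -2.01 in Trsp-Ins1KO against TrspFF. The summed level of the list was 6.49 to 7.16 in TrspFF, 6.53 to 6.74 in Trsp-RIPKO and 4.22 to 6.26 in Trsp-Ins1KO. By that sum the order was not that of Ins1. Trsp-RIPKO replicate 1 (6.53) stood above TrspFF replicate 2 (6.49), whereas their Ins1 levels were -4.41 and -4.37. On Trsp-Ins1KO replicate 2, 14 of 16 were well above background, and on the other arrays 16 of 16. Transthyretin, Ttr, the most abundant secreted product of that tissue, had a level of -0.95 on that array and 5.39 to 6.31 on the others. Ins2 did not share the low point: on Trsp-Ins1KO replicate 2 it was 0.14 above its level on replicate 1. The part of choroid plexus content in the Ins1 and Ins2 levels was not tested; without that array the Trsp-Ins1KO against TrspFF difference was -0.71 for Ins1 and -0.61 for Ins2.

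Most hypothalamus markers stood the other way. In Trsp-Ins1KO against TrspFF 14 of 16 were higher, and the 2 that were lower were Npy (-0.25) and Sim1 (-1.06). Of 18 listed, 16 were tested, 0 passed in any comparison by limma, and their mean level was 1.12 and 1.10 in the arrays labelled Trsp-Ins1KO, 0.41 to 0.70 on the others. Among them the melanocortin precursor gene Pomc and the oxytocin gene Oxt were well above background on every array. Otp was on none. Ucn3, which hypothalamic neurons make, also had its highest levels on these arrays, without passing the test. The part of this list in its level was not tested. The 6 markers of the medial amygdala and septum, where urocortin 3 cells or fibres also lie, had a median difference of -0.14 in Trsp-Ins1KO against TrspFF, with 0 past the test.

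**Figure D4:**
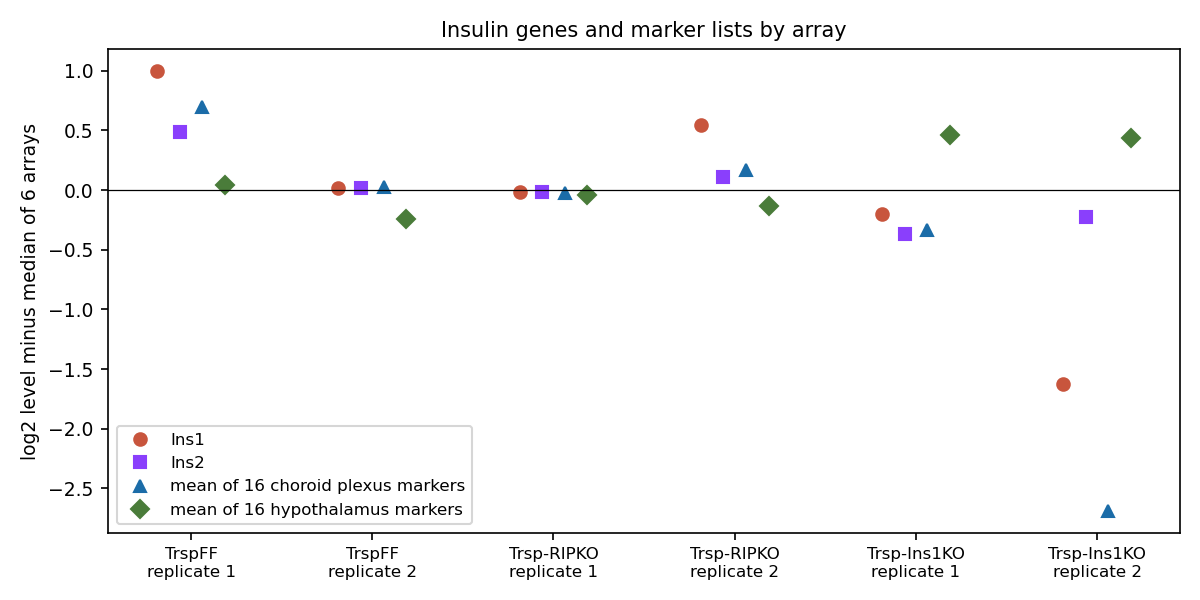
Log2 level minus the median of the 6 arrays for Ins1, Ins2, the mean of 16 choroid plexus markers and the mean of 16 hypothalamus markers, 1 column of points per array. Ins1 and the choroid plexus mean are both lowest on Trsp-Ins1KO replicate 2, where Ins2 is not, and the hypothalamus mean is highest on both Trsp-Ins1KO arrays.

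Several defining genes of beta cells were not well above background. The islet amyloid peptide gene Iapp, which beta cells secrete with insulin, was well above background on 0 of 6 arrays, as were the granule zinc transporter Slc30a8, the glucose-6-phosphatase G6pc2, the glucose transporter Slc2a2, the channel Trpm5 and the fatty acid receptor Ffar1. Pdx1, the homeodomain activator of the insulin promoter, was well above background on 1 array, Trsp-Ins1KO replicate 1, at -5.73. Of 20 beta-cell transcription factors 19 had a probe, 11 were well above background on all 6 arrays and 5 on none, with Pax4, Rfx6 and Neurog3 among the latter. Those seen on every array include factors that neurons also use, such as Neurod1, Nkx2-2, Isl1 and Pax6. All 18 genes of peptide processing and secretory granules were well above background on all 6 arrays; neurons that release peptides share this machinery.

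**Figure D5:**
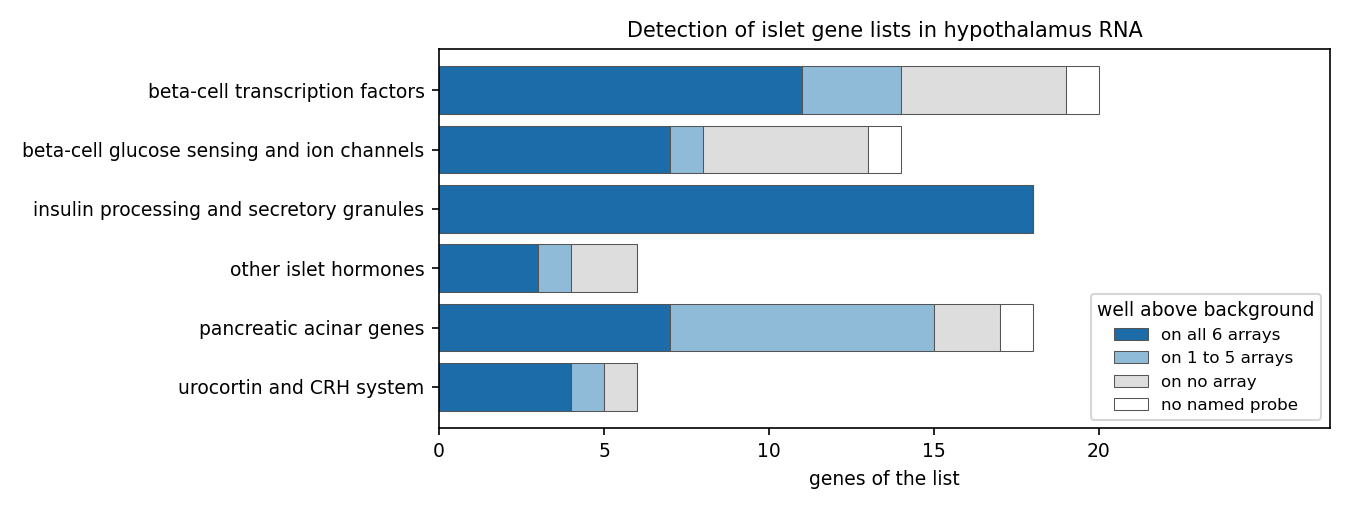
Number of genes of 6 lists whose best probe was well above background on all 6 arrays, on 1 to 5, on none, or without a named probe. All 18 granule genes are detected throughout, against 11 of 20 beta-cell transcription factors and 7 of 14 genes of glucose sensing and ion channels.

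More exocrine pancreas genes were above background on 1 array than on the others. Of 17 acinar genes with a probe, 14 were well above background on Trsp-Ins1KO replicate 2 and 7 to 10 on the other arrays. Chosen after their values were seen, Cpa1 (-4.85), Prss2 (-5.96), Cela3b (-5.93), Try4 (-4.59) and Try5 (-4.74), genes of pancreatic digestive enzymes, were well above background on that array alone. Not all of the list did so. Prss1, chosen likewise, was at -7.97 there and well above background only on Trsp-RIPKO replicate 2 (-6.07). Amy2a5, also chosen likewise, was at -2.23 there and at -1.55 and -1.32 in the arrays labelled Trsp-RIPKO. Trsp-Ins1KO replicate 2 is the array with the lowest Ins1, and Iapp was not above background on it. Pituitary markers were most often seen on TrspFF replicate 1, where 7 of 12 were well above background against 3 to 5 on the other arrays, with Cga, the shared subunit of pituitary hormones, at -1.78 there and -8.04 to -5.88 elsewhere. Ins1 and Ins2 were highest on that TrspFF array; the part of either tissue in their levels was not tested. The growth hormone gene Gh was well above background on 0 of 6 arrays.

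None of the 106 tested genes of the 11 lists around the insulin genes, members apart, passed the test in any comparison (limma). Over all tested genes 1.66%, 1.82% and 0.0175% passed, in the order Trsp-RIPKO against TrspFF, Trsp-Ins1KO against TrspFF and Trsp-RIPKO against Trsp-Ins1KO. At an unadjusted limma p under 0.05 there were 27, 39 and 34 of the 106, beside 23.9%, 26.0% and 18.4% of all tested genes. These lists were chosen with earlier results of these data known. Among the insulin-processing and granule genes, 0 of 18 passed and the median difference was 0.045, 0.13 and -0.097. The prohormone convertase gene Pcsk2, which cleaves proinsulin and neuropeptide precursors alike, had levels of 3.32 and 3.27 in TrspFF, 3.75 and 3.81 in the arrays labelled Trsp-RIPKO, and 3.84 and 3.92 in those labelled Trsp-Ins1KO. All 4 knockout arrays are above both TrspFF arrays, as they were for 16.9% of all tested genes. Its differences from TrspFF were 0.49 (limma adjusted p = 0.0685) and 0.59 (adjusted p = 0.0519); with trend and robust moderation both passed. With the mean of its probes in place of the brightest they were 0.21 (adjusted p = 0.268) and 0.089 (adjusted p = 0.584) by limma, so the size of the difference depends on the choice of probe. The other convertase, Pcsk1, differed by 0.55 in Trsp-Ins1KO against TrspFF (adjusted p = 0.122), the neuroendocrine secretory gene Vgf by 0.52 (adjusted p = 0.0776), and chromogranin A, Chga, by 0.39 (adjusted p = 0.104), by limma. With quantile normalization the Vgf and Chga differences were 0.33 and 0.22, and Vgf passed with normexp or with trend and robust moderation.

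Sytl4, whose product granuphilin tethers insulin granules to the plasma membrane, separated the knockouts. Its levels were -0.42 and -0.38 in the arrays labelled Trsp-Ins1KO, -1.75 and -1.86 in those labelled Trsp-RIPKO, and -0.89 and -1.46 in TrspFF, with no overlap between any pair of groups. Both Trsp-Ins1KO arrays were highest for 18.3% of all tested genes, and both Trsp-RIPKO arrays lowest for 14.8%. For Sytl4, Trsp-RIPKO minus Trsp-Ins1KO was -1.41 (SE 0.20, limma adjusted p = 0.263), and Trsp-Ins1KO differed from TrspFF by 0.78 (adjusted p = 0.113). The latter was 1.07 without TrspFF replicate 1, where it passed (limma adjusted p = 0.0426), 0.49 without TrspFF replicate 2 and 0.49 with normexp. With the knockouts fitted alone, within 1 slide, the difference between them passed, and that fit called 319 of all genes against 4 with all arrays. Under the names of the value table the direction between the knockouts turns.

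In the list of glucose sensing and ion channels 0 of 8 tested genes passed and the median difference was 0.19, 0.068 and 0.13. The sulfonylurea receptor gene Abcc8 of the ATP-sensitive potassium channel was 0.45 higher in the arrays labelled Trsp-RIPKO than in those labelled Trsp-Ins1KO (limma adjusted p = 0.263). Of 12 tested beta-cell transcription factors 0 passed, at medians of -0.031, 0.048 and -0.082. Isl1, also a factor of hypothalamic neurons, differed by -0.48 in Trsp-RIPKO against TrspFF (limma adjusted p = 0.124) and by -0.63 in Trsp-RIPKO against Trsp-Ins1KO (adjusted p = 0.263). Pax6 differed by 0.45 and 0.50 in the comparisons of Trsp-RIPKO and Trsp-Ins1KO with TrspFF (limma adjusted p = 0.103 and 0.0861) and Myt1 by -0.51 in Trsp-RIPKO against TrspFF (adjusted p = 0.0800). For Myt1 the difference was -0.16 with normexp (limma adjusted p = 0.454) and -0.33 with quantile normalization. Of 4 other islet hormone genes tested 0 passed (medians -0.087, 0.16 and 0.032), and of 9 acinar genes tested 0 passed (0.17, 0.041 and -0.18).

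Around Ucn3, 0 of 5 tested genes of the urocortin and corticotropin-releasing hormone system passed (medians 0.12, 0.014 and -0.032). The receptor for urocortin 3, Crhr2, had levels of -1.20 and -1.55 in TrspFF, -1.54 and -1.80 in the arrays labelled Trsp-RIPKO, and -1.21 and -1.52 in those labelled Trsp-Ins1KO, so that every pair of groups overlapped except the knockouts. The binding protein gene Crhbp was higher than in TrspFF in both knockouts, by 0.54 in Trsp-Ins1KO (limma adjusted p = 0.128) and 0.51 in Trsp-RIPKO (adjusted p = 0.155). Among 8 insulin and IGF receptors, ligands and substrates 0 passed, at medians of -0.050, 0.0078 and 2.85e-05. The insulin receptor gene Insr had levels between -1.97 and -1.38 across the 6 arrays.

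The neighbours of the insulin genes were looked at next, from the order of protein-coding genes in the gene table. Ins2 lies between Igf2 and Th. Igf2, the fetal growth factor gene, had levels of -1.87 and -3.08 in TrspFF, -3.24 and -3.26 in the arrays labelled Trsp-RIPKO, and -3.42 and -4.55 in those labelled Trsp-Ins1KO. Its difference in Trsp-Ins1KO against TrspFF was -1.51 (SE 0.54, 95% interval -2.90 to -0.12, limma adjusted p = 0.171), and its lowest array was again Trsp-Ins1KO replicate 2. The difference was -0.95 without that array and -0.90 without TrspFF replicate 1. Th, the tyrosine hydroxylase gene of dopamine neurons, had levels of 1.68 and 3.57 on the arrays labelled Trsp-Ins1KO and 2.39 to 3.18 on the others. Ins1 lies between Sorcs1 and Xpnpep1. Both kept within a narrow range, with all levels of Sorcs1 between -1.53 and -1.36 and all levels of Xpnpep1 between 2.63 and 2.88.

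Genes with the most similar course were taken as the 3 of 15084 other genes with a usual symbol that had the highest Pearson r over the 6 arrays. For Ins1 they were Pear1 (r = 0.99), the choroid plexus marker Enpp2 (r = 0.99) and Fam160a1 (r = 0.98), and 138 genes had an r over 0.9. Pear1 had levels of -2.65 and -3.23 in TrspFF, -3.16 and -2.88 in the arrays labelled Trsp-RIPKO, and -3.46 and -4.43 in those labelled Trsp-Ins1KO. For Ins2 they were Rhbdf2 (0.99), Rab7 (0.98) and Pdk1 (0.98), with 33 genes over 0.9. For Mafa they were Rfpl4 (0.99), Samd5 (0.99) and Raver2 (0.97), with 90 over 0.9. Nkx6-1 was nearest to Mmel1 (1.00), Ncf1 (1.00) and Cdkn1a (0.99), with 170 over 0.9, and Ucn3 to Tmem82 (1.00), Mosmo (0.99) and Zkscan2 (0.99), with 180 over 0.9. None of the 5 genes appeared among the nearest of another, and the highest r between 2 of them was the 0.75 of Ins1 and Ins2. With 6 arrays that share slides, such values are a description only.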

How the data were processed

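Hypothalamus RNA of 6 arrays was labelled with Cy3, per the labels' protocols. Per the file headers, Agilent Feature Extraction 10.7.3.1 gave the spot intensity after background subtraction, and the array annotation follows mm9; the gene table is GRCm38.p6, so of its coordinates only those of the promoter sequence, from the same build, are printed. The deposited value table holds log2 values centred per probe; how it was scaled is not given in these sources.

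Flagged spots were left out and spots of a probe averaged (39429 probes, of which 118 lost every spot to flags on an array and were not tested). Probes were named through transcript accessions (26055 of 39429). Probes passed the filter when both arrays of any group called them well above background (28065 probes), and the brightest stood for its gene (22863 genes). Comparisons used lmFit and eBayes of limma 3.58.1 in R 4.3.3 on all 6 arrays, tested on simulated data. Labels were read with jsonlite 2.0.0. The alternatives were normexp (offset 50) on median signals, quantile and median scaling, the value table, other filters, other probe choices, trend and robust, 2 groups alone, a replicate block, a 2-fold minimum, exchanged names and each array left out. A slide block could not be fitted apart from TrspFF. Same-numbered arrays did not deviate together (r of -0.025, 0.089 and -0.022).

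The 5 genes and the lists were chosen with earlier results of these data known. Named besides the members were up to 4 genes per list by smallest p (up to 8 past the threshold), some fixed islet, pituitary and neighbouring genes, and the 3 most alike genes; exceptions are marked. Some genes that the rule names are not reported here.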

Additional observations from a re-analysis of the deposited data

How the results depend on the processing

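Under every alternative, each array left out included, 0 of the 5 genes passed in any comparison (smallest adjusted p 0.115, Ins2 in Trsp-Ins1KO against TrspFF). With the exchanged names of the value table the differences between the knockouts became -1.18 (Ins1), -0.34 (Ins2), -0.067 (Mafa), 0.63 (Nkx6-1) and 0.69 (Ucn3), by construction. With normexp Mafa was at 0.081 in Trsp-RIPKO against TrspFF; the cause was not tested. Leaving out 1 array turned the sign of small differences: in Trsp-RIPKO against TrspFF Ins1 ranged from -0.73 to 0.25, Ins2 from -0.44 to 0.032, Nkx6-1 from -0.39 to 0.41 and Ucn3 from -0.48 to 0.56, and between the knockouts Mafa from -0.13 to 0.27.

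The count of all genes called was less stable. For Trsp-RIPKO against TrspFF (379) it was 0 with 2 groups alone, without a filter or with the replicate block, 784 with trend and robust, 224 with median scaling, 218 with a 2-fold minimum, and 0 to 495 with 1 array left out (495 without TrspFF replicate 2, 28 without Trsp-RIPKO replicate 1, 0 without any other). For Trsp-Ins1KO against TrspFF (416) it was 0 with 2 groups alone or the replicate block, 25 without a filter, 1240 with trend and robust, 243 with a 2-fold minimum, and 0 to 511 (511 without TrspFF replicate 1, 1 without Trsp-Ins1KO replicate 2, 0 without any other). Between the knockouts (4) it was 319 with 2 groups alone, 2 with the filter on all 6 arrays, 1 without a filter, with normexp or with trend and robust, 0 with the replicate block, and 0 to 319 (319 without either TrspFF array, 22 without Trsp-RIPKO replicate 1, 1 without Trsp-Ins1KO replicate 2, 0 without any other). The replicate numbers do not pair the arrays, and since 0 of the 5 genes were called without the replicate block, it could end no call among them. Leaving out 1 array of the third group leaves it 1 array, which adds nothing to the spread, so those counts equal those of 2 groups alone. Median scaling moved the median of all genes to 0.11 in Trsp-Ins1KO against TrspFF, from 0.024. Faint signals limit Ins1, Nkx6-1 and Ucn3, which lie 0.52 to 3.91 (log2) above the faintest signal called above background on their arrays.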
